A study of Mus musculus with 18 samples.

Results

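5-prime fragment isoforms are long-read transcript models that follow the splice junctions of a known transcript from its 5-prime end and stop before its last junctions. They were taken from a table of read counts per isoform as every isoform whose category is an incomplete splice match and whose subcategory is a 5-prime fragment. This gave 3984 of 114425 isoforms, under 2479 gene labels, with 80811 of 10234812 reads. The libraries came from primary mouse brain cultures and from small extracellular vesicles (sEVs) derived from primary cells of the same types, read as full-length cDNA on the PacBio platform. There were 6 groups of 3 libraries each, namely astrocyte sEVs and astrocyte cells, microglia sEVs and microglia cells, and neuron sEVs and neuron cells. The sources used here give no strain, age, genotype or treatment of the cultures, and the molecule of every library is labelled as polyA RNA that went through extra cycles of cDNA amplification. The labels do not say whether the 3 libraries of a group come from separate cultures, so a p-value reflects only how these libraries vary. The cell libraries were run together in 1 pool and the sEV libraries in another, so wherever sEVs are set against cells, fraction and sequencing pool cannot be told apart.

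A gene can end its mRNA at more than one poly(A) site. When a site inside an intron or in an early exon is used, the mRNA keeps the first exons and loses the last ones, and the protein it can encode is shortened or changed. Homer1 and Flt1 are known examples. The name of the isoform class records only which junctions of a reference transcript were read. Small extracellular vesicles are membrane particles that cells release and that carry protein and RNA, including mRNA.

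A 5-prime fragment keeps the first exons of its gene, so the sequence just before the annotated start is shown for 4 genes of antiviral defence whose fragments were read in microglia libraries, with at most 4 reads in any other group. They were chosen after their values were seen. Ifih1 encodes a sensor of double-stranded RNA, Herc6 is a ubiquitin ligase of the interferon response, and Ifi205 and Ifi207 belong to a family of interferon-inducible proteins that bind DNA. The 150 bases before the start, on the strand of the gene, come from RefSeq on GRCm38.p6, a build other than the GRCm39 of the reads. They lie at chr2:62646256-62646405 (minus strand) for Ifih1, chr6:57580842-57580991 (plus strand) for Herc6, chr1:174031756-174031905 (minus strand) for Ifi205 and chr1:173741810-173741959 (minus strand) for Ifi207. Capitals mark GAAA, any 2 bases and GAAA again, the core of the interferon-stimulated response element, searched on both strands of the 250 bases before the start.
Ifih1: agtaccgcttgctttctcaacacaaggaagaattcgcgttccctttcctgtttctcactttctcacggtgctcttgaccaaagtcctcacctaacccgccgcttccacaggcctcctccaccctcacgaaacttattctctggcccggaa
Herc6: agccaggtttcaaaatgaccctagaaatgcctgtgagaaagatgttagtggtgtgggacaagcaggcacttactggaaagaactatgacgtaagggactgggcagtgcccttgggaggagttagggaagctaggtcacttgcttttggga
Ifi205: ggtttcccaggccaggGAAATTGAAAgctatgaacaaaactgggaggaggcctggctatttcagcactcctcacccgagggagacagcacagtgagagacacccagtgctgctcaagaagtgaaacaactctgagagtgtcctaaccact
Ifi207: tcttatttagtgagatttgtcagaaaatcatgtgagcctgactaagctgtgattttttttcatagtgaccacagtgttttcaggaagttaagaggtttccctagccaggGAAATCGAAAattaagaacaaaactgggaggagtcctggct

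This paired GAAA motif lay 134 bases before the start of Ifi205 and 41 bases before that of Ifi207, and was not found in the windows of Ifih1 and Herc6. It was found in 978 of 32851 promoters of the same length, or 2.98%. A second motif of interferon response, TTC, any 3 bases and GAA, was found in none of the 4 windows, against 2306 of 32851 promoters, or 7.02%. Ifi205 and Ifi207 lie in one family of similar genes, so the split of reads between them is uncertain. Of the 2479 gene labels, 2459 matched a RefSeq symbol and 1998 had a promoter entry.

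Most 5-prime fragments were rare. Of the 3984 isoforms, 2427 were seen in 1 library only, 1193 in 2 to 5 libraries, 349 in 6 to 17 and 15 in all 18. The median isoform had 4 reads. The 115 isoforms with 100 or more reads held 58.5% of the reads of the class, and the 12 with the most reads held 29.5%. Fragments seen in 1 library only made up 60.9% of the class, against 70.0% of the 30496 3-prime fragments and 27.0% of the 22795 full-splice matches. A gene label had 1 fragment in 1677 cases, 2 or 3 in 641 and 4 or more in 161. The most were the 17 of Ttc3, a ubiquitin ligase, and the 15 of Kmt2e, a protein of the SET-domain family that acts on chromatin. No count of 1 occurs in the table, where the lowest nonzero value is 2, and a listed 0 may therefore stand for a single read.

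For most genes the fragments were a small share of the reads, and for a minority they were nearly all of them. The median share over the 2479 labels was 3.07%, with 1753 labels under 10% and 195 at 50% or more. Among the 130 labels with 100 or more fragment reads, 42 had 50% or more of their reads in fragments. Esf1, a nucleolar protein of ribosome assembly, stood highest at 97.8% of its reads. It was followed by Map1b, a microtubule-associated protein of growing axons, at 94.1%, and by Pcdh9, a protocadherin of cell adhesion, at 91.9%. Kmt2e had 90.7% and Psmd1, a subunit of the regulatory particle of the proteasome, had 90.5%. Genes of RNA processing were also among the 42 labels, with Nop58 at 83.2%, Thoc2 at 82.6% and Srrm2 at 79.1%. Full-splice matches had 0 reads for Esf1, 2 for Kmt2e, 11 for Pcdh9, 31 for Psmd1 and 271 for Map1b. These genes were ordered by the values themselves, as a description.

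The libraries held 434298 to 683381 reads each. In cell libraries summed markers followed the labels, with 31445 to 32378 reads per 1000000 library reads (RPM) of 14 astrocyte markers in astrocyte cells, 27177 to 33002 RPM of 18 microglia markers in microglia cells and 7770 to 9011 RPM of 17 neuron markers in neuron cells. Astrocyte sEVs held 11905 to 24035 RPM of astrocyte markers and microglia sEVs 9065 to 14931 RPM of microglia markers. Neuron sEVs held 3400 to 4233 RPM of neuron markers, with 3 of 17 at 0. They also held 2773 to 3838 RPM of astrocyte markers, with 4 of 14 at 0, so these ranges overlapped. Markers of other lineages were also read. The 11 markers of the oligodendrocyte lineage, none of them at 0, summed to 4778 to 10455 RPM in astrocyte cells and 667 to 1993 RPM in neuron cells, and astrocyte markers, with 1 of 14 at 0, to 4171 to 4659 RPM in neuron cells. In bulk samples fewer cells of a type and less RNA per cell cannot be told apart. Ferritin (Ftl1 and Fth1) took 16.2 to 32.6% of the reads of astrocyte and neuron sEV libraries and 6.61 to 10.2% of microglia sEV libraries, against 0.623 to 3.31% of cell libraries. The predicted genes Gm42047 and Gm20186 took 7.44% of replicate 1 of astrocyte sEVs and 9.71% of replicate 1 of neuron sEVs.

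The first comparison asked whether the class takes the same share of the reads in sEVs as in cells of the same type. In neurons the share was lower in every sEV library than in every cell library. Astrocyte sEVs showed a smaller difference that overlapped, and microglia sEVs and cells had nearly the same share. Neuron sEVs had 0.474, 0.579 and 0.344% of their reads in 5-prime fragments, against 1.16, 1.33 and 1.02% in neuron cells. Astrocyte sEVs had 0.665, 0.542 and 0.498%, against 0.927, 0.825 and 0.657% in astrocyte cells. Microglia sEVs had 0.897, 0.936 and 0.859%, against 1.02, 0.840 and 0.852% in microglia cells. The neuron groups did not overlap, the astrocyte groups overlapped by 1 library, and the microglia sEVs lay inside the range of the cells. Binomial 95% intervals (Wilson) were narrow beside the gap in neurons, from 0.458 to 0.491% in neuron sEV replicate 1. In the other cell types the intervals of some sEV and cell libraries overlapped, as at 0.645 to 0.685% in astrocyte sEV replicate 1 and 0.638 to 0.676% in astrocyte cell replicate 3. The intervals cover counting error only, since the reads carry no molecular identifiers.

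**Figure D1:**
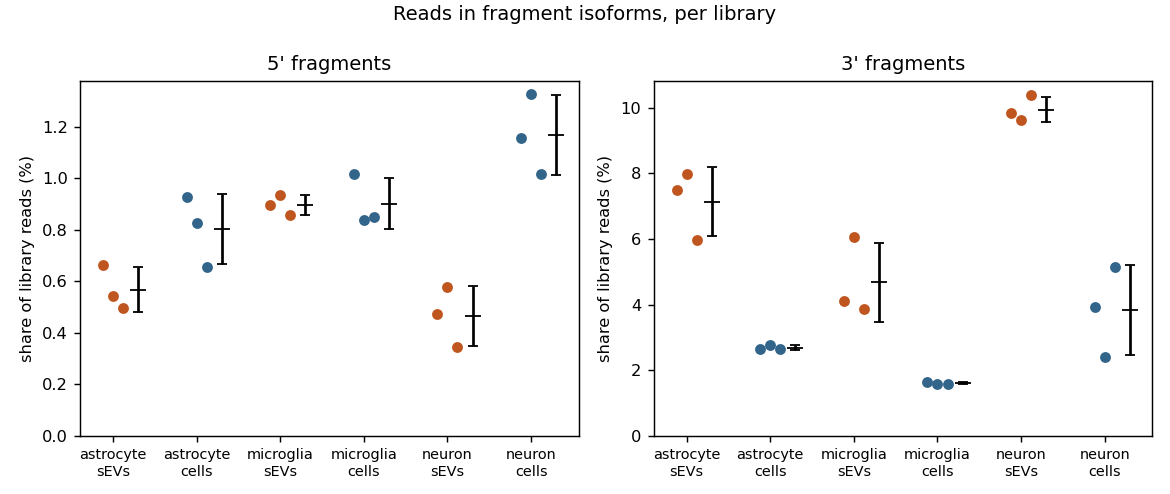
Share of library reads (%) in 5-prime fragments (left) and in 3-prime fragments (right), 1 point per library, with the mean and SD of 3 libraries beside each group; sEVs are orange and cells blue. The 3 neuron sEV libraries lie between 0.344 and 0.579% on the left, below all cell libraries of the plot, and between 9.63 and 10.4% on the right.

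Over the 3 cell types the share was 0.314 percentage points lower in sEVs. The difference column is signed as sEVs minus cells, at -0.314 (exact permutation within cell types, two-sided p = 0.00525 over 8000 arrangements, 0.0397 after Benjamini-Hochberg adjustment over 10 comparisons). With the reads of Ftl1 and Fth1 left out of the totals, a choice made after seeing the data, the difference was -0.200 and the exact permutation p was 0.053. Within cell types, 3 libraries against 3 allow no p under 0.1. The neuron difference of -0.703 percentage points had that smallest exact p of 0.1, the astrocyte difference of -0.235 had p = 0.2 and the microglia difference of -0.00484 had p = 1. The ratio of sEV to cell share was 0.392 in neurons, 0.710 in astrocytes and 0.998 in microglia, each the geometric mean of 3 ratios of libraries with the same number. These ratios differed among the cell types (exact permutation p = 0.00357 over 1680 arrangements, a test added after seeing the data), and also without Ftl1 and Fth1, at 0.489, 0.933 and 1.05 (p = 0.00714). The numbers were not found to pair the libraries, so the spread of the ratios, and with it these p-values, rests on an arbitrary pairing. The p of 0.00357 is the smallest that this test allows.

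The 3-prime fragments, which keep the last exons of a gene and lack the first, moved the other way. They took 9.83, 9.63 and 10.4% of neuron sEV reads, against 3.93, 2.40 and 5.16% of neuron cell reads. Over the 3 cell types they were 4.55 percentage points higher in sEVs, with an exact permutation p of 0.00025, the smallest that the 8000 arrangements allow. For each read in a 5-prime fragment there were 16.6 to 30.2 reads in a 3-prime fragment in neuron sEVs, against 1.80 to 5.07 in neuron cells. The ratio was 11.3 to 14.7 in astrocyte sEVs, against 2.84 to 4.04 in astrocyte cells. It was 4.49 to 6.48 in microglia sEVs, against 1.61 to 1.88 in microglia cells, so the groups did not overlap in any of the 3 cell types. Among incomplete splice matches alone, the 5-prime fragments held 7.17 ± 0.904% in astrocyte sEVs and 21 ± 2.75% in astrocyte cells, 15.8 ± 2.51% in microglia sEVs and 32.3 ± 2.13% in microglia cells, and 4.29 ± 1.19% in neuron sEVs and 22.9 ± 8.89% in neuron cells (SD, n = 3). The difference of this share over the cell types was -16.3 percentage points (exact permutation p = 0.00025). Of the 629352 reads in incomplete splice matches, 513623 were in 3-prime fragments, so this share and the ratio also fall or rise with the 3-prime fragments. In microglia the 5-prime share of all reads differed by only -0.00484 percentage points.

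Fewer 5-prime fragments were also seen per library in sEVs. Astrocyte sEV libraries held 282 to 358 of them, against 582 to 709 in astrocyte cells. Microglia sEV libraries held 319 to 439, against 525 to 645 in microglia cells, and neuron sEV libraries 294 to 437, against 686 to 842 in neuron cells. All isoforms together were also fewer in sEVs of each cell type, so that 5-prime fragments made up 2.31 ± 0.421% of the isoforms seen in astrocyte sEVs and 3.23 ± 0.329% in astrocyte cells, 3.57 ± 0.212% in microglia sEVs and 4.35 ± 0.172% in microglia cells, and 2.17 ± 0.37% in neuron sEVs and 3.56 ± 0.391% in neuron cells (SD, n = 3). Of the genes with a fragment in neuron sEVs, 340 also had one in neuron cells, which is 52.7% of the 645 sEV genes and 29.3% of the 1162 cell genes. In astrocytes the 314 shared genes were 51.9% of 605 sEV genes and 31.2% of 1008 cell genes. In microglia the 343 shared genes were 54.4% of 630 sEV genes and 45.3% of 758 cell genes. A shared gene need not share the same fragment. Counted by isoform, 309 fragments were shared in neurons, or 39.5% of 783 in sEVs and 19.6% of 1579 in cells. The 314 shared in astrocytes were 42.3% of sEV and 23.4% of cell fragments, and the 366 in microglia 43.0% and 33.5%. The same overlap over all isoforms is not given here.

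Between cell types, the share stood highest in neuron cells and, among vesicles, in microglia sEVs. Neuron cells were 0.316 percentage points above astrocyte and microglia cells, and all 3 neuron libraries lay above the highest of the other 6 (exact permutation p = 0.0119, the smallest that 84 arrangements allow, adjusted 0.0397). Microglia sEVs were 0.381 percentage points above the other sEVs, and every one of their libraries lay above all 6 others (exact permutation p = 0.0119, adjusted 0.0397). The other 4 such comparisons had adjusted exact p-values of 0.179 to 0.648. Without the 12 fragments with the highest mean level, the share was 0.827, 0.725 and 0.689% in neuron cells. It was 0.728, 0.620 and 0.619% in microglia cells, so neuron and microglia cells then overlapped. Microglia sEVs, at 0.585 to 0.680%, still lay above the other sEVs, at 0.260 to 0.505%. Taken as a share of incomplete splice matches, neuron cells were 3.77 percentage points below the other cells on average (exact permutation p = 0.5), so the order of the cell types depends on the denominator.

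The 12 fragments with the highest mean level included some read in all 18 libraries and some at or near 0 in 1 or more cell types. Levels are given as counts per 1000000 reads (CPM), with library totals scaled by TMM. The fragment of Eif5, a factor of translation initiation, was one of those read in all 18 libraries. It stood at 329, 315 and 344 CPM in astrocyte sEVs, against 306, 367 and 305 in astrocyte cells, at 241, 209 and 159 in microglia sEVs, against 194, 239 and 167 in microglia cells, and at 171, 137 and 223 in neuron sEVs, against 229, 191 and 208 in neuron cells. The sEV and cell ranges overlapped in each cell type, and fragments held 61.1% of all Eif5 reads. The Psmd1 fragment had 83.3, 139 and 112 CPM in neuron sEVs, against 223, 258 and 232 in neuron cells, and was called lower there (-1.09 on the log2 scale, edgeR adjusted p = 0.0143) and in microglia sEVs (-1.07, edgeR adjusted p = 0.0359). Fragments of Psmd1, of the chaperones Hsp90ab1 and Hsp90aa1 and of Phf20, a reader of histone methylation, were also read in all 18 libraries. Hsp90ab1 and Hsp90aa1 are similar genes, so the split of reads between them is uncertain.

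**Figure D2:**
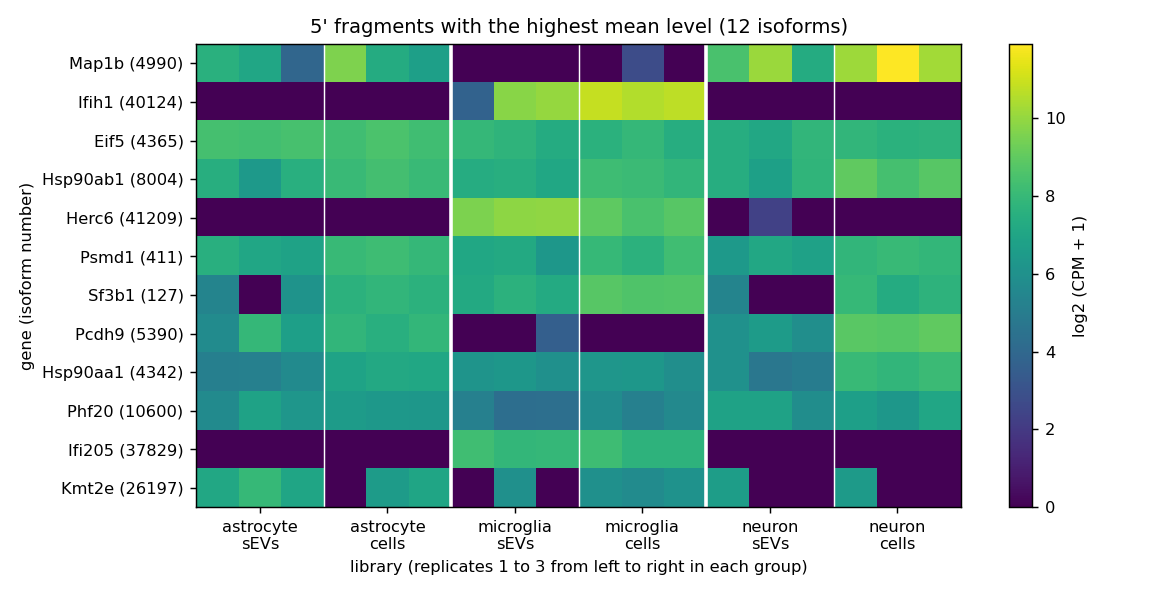
Level of the 12 fragments with the highest mean level, as log2 (CPM + 1), with 1 column per library and sEVs left of cells in each cell type. The rows of Ifih1, Herc6 and Ifi205 are at or near 0 outside the microglia columns, and the rows of Map1b and Pcdh9 are at or near 0 inside them.

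The fragment of Map1b had the most reads of the class and was a neuron and astrocyte fragment. It had 1136, 3812 and 1203 CPM in neuron cells, against 767, 157 and 104 in astrocyte cells and 0, 5.83 and 0 in microglia cells. Each neuron cell library was above all other cell libraries (edgeR adjusted p = 0.00124), and the neuron mean of 2050 ± 1526 CPM rests largely on replicate 2. Neuron sEVs held 358, 1099 and 159 CPM, all below the lowest neuron cell library, a difference that did not pass the test (edgeR adjusted p = 0.181). The fragment of Pcdh9 stood at 63.2, 90.9 and 57.5 CPM in neuron sEVs, against 461, 438 and 505 in neuron cells. It was called lower in neuron sEVs, at -2.73 on the log2 scale (edgeR adjusted p = 0.0174). That of Sf3b1, the core of the U2 snRNP of the spliceosome, had 40.1, 0 and 0 CPM in neuron sEVs, against 250, 157 and 206 in neuron cells, and was also called lower (edgeR adjusted p = 0.0244).

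Kmt2e had 15 fragments. Its most read fragment had 139, 247 and 128 CPM in astrocyte sEVs, against 0, 90.3 and 126 in astrocyte cells, and was at 0 in 2 of 3 libraries of microglia sEVs, neuron sEVs and neuron cells. All of them together held 97.0 ± 2.65% of Kmt2e reads in astrocyte sEVs and 92.3 ± 9.39% in astrocyte cells (SD, n = 3). No comparison of this fragment passed the test.

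In the fit of all isoforms, 166 of the 3984 fragments passed the filter on low counts and were tested among 9370 isoforms. The other 3818 are described above but not tested. Most calls between sEVs and cells were lower in sEVs, for the fragments and for all isoforms. A fragment could pass the filter on the reads of 1 group alone. One that passed only through cell libraries could be called lower in sEVs but not higher, so the filter fixed its direction. Likewise, a fragment that passed only through 1 cell type could only be called higher in it. In astrocyte sEVs 1 fragment was called higher and 18 lower, against 15.5% of all tested isoforms called in either direction, 3.22% higher and 12.3% lower. In microglia sEVs none was called higher and 12 lower, against 9.36% of all isoforms in either direction, 1.36% higher and 8.0% lower. The count of 0 higher calls is from edgeR, 3 fragments were higher at an unadjusted p under 0.05, and DESeq2 called 2 higher. In neuron sEVs 5 were called higher and 30 lower, against 27.2% of all isoforms in either direction, 6.26% higher and 20.9% lower. The called fragments were thus 11.4, 7.23 and 21.1% of the 166 in astrocytes, microglia and neurons, each below the share of all isoforms. Leaving out any 1 library left 7 to 14 calls in astrocytes, 3 to 10 in microglia and 13 to 21 in neurons.

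**Figure D3:**
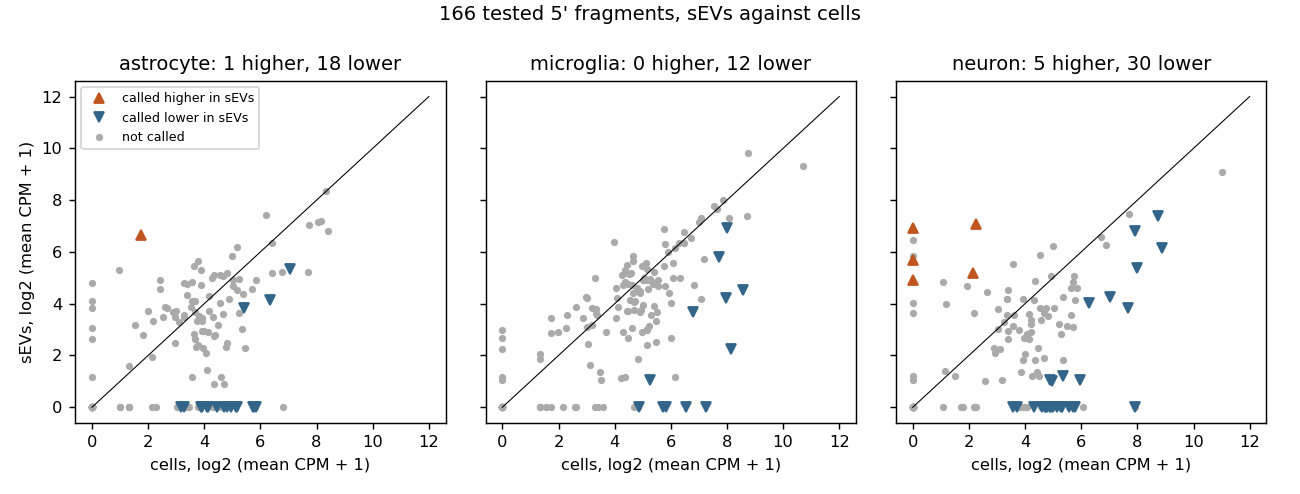
Mean level of the 166 tested fragments in sEVs (vertical) against cells (horizontal), as log2 (mean CPM + 1), for each cell type; triangles mark fragments with an adjusted p under 0.05 and the line marks equal levels. Most called fragments lie below the line and many of them at 0 in sEVs, with 18 lower in astrocytes, 12 in microglia and 30 in neurons.

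The median log2 change of the fragments in astrocyte sEVs was 0, against -0.09 over all tested isoforms. In neuron sEVs it was -0.90, against -0.57 over all isoforms. In microglia sEVs it was -0.19, against 0 over all isoforms. Of the 39 fragments called lower in any cell type, 22 were called in 1, 13 in 2 and 4 in all 3. Those 4 were 2 fragments of Hspa5, the main chaperone of the endoplasmic reticulum (ER), 1 of Os9, a lectin that marks misfolded proteins for removal from the ER, and 1 of Naa25, a subunit of an N-terminal acetyltransferase. They were picked out after their values were seen. Of all tested isoforms, 12.3, 8.0 and 20.9% were called lower in astrocyte, microglia and neuron sEVs. How many of these were called in all 3 cell types is not given here.

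For the ER chaperones, the summed reads of the genes were lower in sEVs together with the Hspa5 fragments. The Hspa5 fragment 9718 had no read in astrocyte sEVs, against 44.8, 64.9 and 49.6 CPM in astrocyte cells, which is at least 12-fold lower when a count of 0 is taken as 3 reads per library (edgeR adjusted p = 0.000248). In microglia sEVs it had 14.3, 29.9 and 8.02 CPM, against 220, 289 and 233 in microglia cells (edgeR adjusted p = 0.00446). In neuron sEVs it had 0, 0 and 3.29 CPM, against 61.7, 47.4 and 73.0 in neuron cells (edgeR adjusted p = 0.000502). No sEV library reached the lowest cell library of its cell type. The sum of the 12 ER chaperones was 634 to 704 RPM in astrocyte sEVs and 9258 to 10305 RPM in astrocyte cells, 1049 to 1411 RPM in microglia sEVs and 8881 to 10419 RPM in microglia cells, and 311 to 400 RPM in neuron sEVs and 9291 to 10221 RPM in neuron cells. Fragments were 0% of Hspa5 reads in each astrocyte sEV library, 0 of 206 reads in all, and 2.77 ± 0.559% in astrocyte cells (SD, n = 3, edgeR adjusted p of the usage test 0.0648). They were 3.66 ± 3.19% in microglia sEVs and 3.86 ± 0.493% in microglia cells, and 4.23 ± 3.75% in neuron sEVs and 3.91 ± 0.227% in neuron cells (SD, n = 3).

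The Os9 fragment 1992 was at 0 in all 9 sEV libraries. It stood at 18 to 49.3 CPM in astrocyte cells, 22.8 to 35.6 in microglia cells and 39.9 to 50.7 in neuron cells. It was at least 6.78-fold lower in astrocyte sEVs, at least 5.37-fold lower in microglia sEVs and at least 8.95-fold lower in neuron sEVs (edgeR adjusted p = 0.00204, 0.00475 and 0.00101). Os9 also had reads in other fragments, and the level of the whole gene is not given here. In the usage test Os9 was not called in astrocyte sEVs (higher, edgeR adjusted p = 0.597) or microglia sEVs (lower, edgeR adjusted p = 0.851). The Naa25 fragment was present in every library but lower in sEVs. It had 12.3, 23.2 and 9.86 CPM in neuron sEVs, against 72.6, 91.5 and 65.5 in neuron cells (edgeR log2 change -2.33, adjusted p = 0.00376). It was also called lower in astrocyte sEVs (-1.64) and microglia sEVs (-1.91).

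Among the largest falls in astrocyte sEVs were Sec61a2, a pore subunit of the ER translocon, Enpp5, an enzyme of the nucleotide pyrophosphatase family, Tmem175, a potassium channel of lysosomes, and Pigs, a subunit of the enzyme that attaches GPI anchors. None of these fragments had a read in astrocyte sEVs. Sec61a2 stood at 56.7, 62.1 and 51.1 CPM in astrocyte cells and Enpp5 at 58.2, 32.5 and 67.6 CPM, which made them at least 12.8-fold and at least 11.9-fold lower in sEVs (edgeR adjusted p = 0.0033 and 0.00214). Tmem175 was at least 7.93-fold and Pigs at least 7.75-fold lower, and both calls were lost whenever 1 library of either group was left out. Enpp5 and Sec61a2 were also low in the vesicles as whole genes. They had 19 and 40 reads over the 3 astrocyte sEV libraries, against 773 and 345 in astrocyte cells. Reads of the whole Tmem175 and Pigs genes are not given here.

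In microglia sEVs the largest falls were of Il27, Lpl, Zc3h7a, Hspa5 and Samhd1. The fragment of Il27, a subunit of a cytokine of macrophages and microglia, had 175, 163 and 121 CPM in microglia cells and no read in microglia sEVs, at least 29.1-fold lower (edgeR adjusted p = 0.0146). That of Lpl, lipoprotein lipase, had 120, 93.3 and 61.7 CPM in microglia cells and no read in the sEVs, at least 17.4-fold lower (edgeR adjusted p = 0.0225). Those of Zc3h7a, a zinc finger protein, and of a second Hspa5 isoform were at least 10.6-fold and at least 9.83-fold lower. Samhd1, an enzyme that breaks down deoxynucleotides and restricts viruses, had 0, 0 and 11.2 CPM in microglia sEVs, against 337, 99.2 and 404 in microglia cells, and was 68.3-fold lower (edgeR adjusted p = 0.0265). The groups did not overlap in any of these 5. The calls of Il27, Lpl, Zc3h7a and Samhd1 were lost without any 1 of the microglia cell libraries, that of Lpl also without any 1 sEV library, and those of Zc3h7a and Samhd1 without replicate 1 or 2 of the sEVs. The calls of Il27 and Lpl were also lost with DESeq2.

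Neuron sEVs gave both directions. The largest fall was of Enpp5, with no read in neuron sEVs, against 245, 278 and 208 CPM in neuron cells. It was at least 47.6-fold lower (edgeR adjusted p = 0.000444). Mtdh, a protein of the ER and nuclear membrane, and Thoc2, of the complex that couples transcription to mRNA export, had no read in neuron sEVs either and were at least 10.4-fold and at least 10.1-fold lower (edgeR adjusted p = 0.00692 and 0.00531). The fragments of Akap9, a kinase anchor of the Golgi and centrosome, and of a second Hsp90aa1 isoform were at least 7.58-fold and at least 7.31-fold lower. Both of these calls were lost without any 1 library of either group, and that of Akap9 also with DESeq2.

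Fragments of 5 genes were higher in neuron sEVs, and 1 of them was also higher in astrocyte sEVs. That one was of Ctnnbl1, a spliceosome-associated protein. It had 97.1, 162 and 146 CPM in neuron sEVs, against 0, 0 and 11.2 in neuron cells, and was 35.0-fold higher (edgeR adjusted p = 0.0196). In astrocyte sEVs it had 89.2, 140 and 71.2 CPM, against 0, 7.05 and 0 in astrocyte cells, and was 38.3-fold higher (edgeR adjusted p = 0.0272). It had no read in microglia sEVs or microglia cells. The fragment of Thra, a thyroid hormone receptor, had 153, 116 and 88.7 CPM in neuron sEVs and no read in neuron cells, at least 22.4-fold higher (edgeR adjusted p = 0.0267). Those of E2f6, a repressor of the E2F family, and Rnf141, a RING finger protein, were at least 9.43-fold and at least 5.48-fold higher, also from no read in neuron cells. Dab1, the adaptor of reelin signalling, had 21.6, 61.9 and 23 CPM in neuron sEVs, against 5.44, 4.90 and 0 in neuron cells (9.67-fold, edgeR adjusted p = 0.0357). The calls of Thra, E2f6, Rnf141 and Dab1 were lost without any 1 neuron library, and those of Thra, E2f6 and Rnf141 also with DESeq2. The call of Ctnnbl1 in astrocyte sEVs was lost without any 1 sEV library or without replicate 1 or 3 of the cells, and that in neuron sEVs without replicate 2 or 3 of the sEVs or replicate 1 or 2 of the cells.

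Among cell types, microglia gave the most calls, for the fragments and for all isoforms. In microglia cells 68 of the 166 fragments (41.0%) were called against the mean of the other cell types. Of the 166, 50 were higher (30.1%) and 18 lower (10.8%). Of all isoforms 35.4% were called in either direction, 18.3% higher and 17.1% lower. In microglia sEVs 68 of the 166 were called (41.0%), 54 higher (32.5%) and 14 lower (8.43%). Of all isoforms 39.1% were called there, 21.7% higher and 17.4% lower. In either direction the shares of fragments called were near those of all isoforms. Ifih1 had 1875, 1496 and 1700 CPM in microglia cells and no read in any other cell library, at least 348-fold higher (edgeR adjusted p = 0.00089). Its level in microglia sEVs was uneven, at 12.5, 892 and 1028 CPM, again with no read in the other sEVs. The Herc6 fragment had 758, 937 and 980 CPM in microglia sEVs, against 2 reads in all other sEV libraries, too few for a fold (edgeR adjusted p = 3.32e-06). In microglia cells it had 495, 359 and 450 CPM, all below the lowest microglia sEV library, a difference that did not pass the test (edgeR adjusted p = 0.281), with no read in the other cells. Ifi205, at 299, 236 and 242 CPM in microglia sEVs and 291, 204 and 203 CPM in microglia cells, and Plek, a kinase substrate of blood and immune cells, at 257, 213 and 183 CPM and 220, 155 and 181 CPM, had no read in other libraries of their fraction.

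These microglia fragments took unequal parts of their genes. Fragments held 88.2 ± 3.06% of Herc6 reads in microglia sEVs and 80.3 ± 16.3% in microglia cells (SD, n = 3). They held 22.6 ± 17.8% of Ifih1 reads in microglia sEVs and 45.7 ± 3.63% in microglia cells. For Ifi205 the shares were 8.67 ± 2.81% in microglia sEVs and 8.44 ± 1.91% in microglia cells, and for Plek 5.44 ± 2.31% and 4.82 ± 0.807%. None of these 4 genes passed the test of a different share in microglia sEVs. The median log2 difference of the 166 fragments in microglia cells was 0.40, against -0.57 over all isoforms, and without TMM it was -0.19, against -1.27, so its sign depends on the scaling. In microglia sEVs it was 0.88, against -0.04 over all isoforms, and without TMM 0.73, against -0.13. In astrocyte cells it was -0.24, against 0.13, and without TMM 0.18, against 0.55. In neuron cells it was -0.19, against 0.28, and without TMM 0, against 0.54, and in astrocyte sEVs -0.04, against 0.07, and without TMM 0, against 0.37. In neuron sEVs it was -0.79, against 0, with 49 fragments above 0 and 117 below, and without TMM -1.01, against 0.

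Neuron and astrocyte libraries gave fewer calls, at 10.8% of the 166 fragments in neuron cells and 10.2% in neuron sEVs. The share called was 2.41% in astrocyte cells and 7.83% in astrocyte sEVs. In neuron cells 16 fragments were called higher and 2 lower than the mean of the other cell types, against 19.2% of all isoforms in either direction, 15% higher and 4.27% lower, and DESeq2 called 13 higher and 13 lower. Kif1b, a kinesin that moves synaptic vesicle precursors, had 52.6, 65.4 and 35.6 CPM in neuron cells and no read in astrocyte or microglia cells, at least 7.97-fold higher (edgeR adjusted p = 0.00164). Akap9 had 59.9, 22.9 and 33.7 CPM in neuron cells and no read elsewhere, at least 6.04-fold higher, a call lost without any 1 neuron library and with DESeq2. Osbpl1a, a sterol-binding protein, had 21.8, 86.6 and 54.3 CPM in neuron cells, against 3 reads in the other cell libraries, too few for a fold (edgeR adjusted p = 0.00854, and 0.0547 without replicate 2 of neuron cells). In neuron sEVs 12 were higher and 5 lower, against 25.7% of all isoforms, 16.8% higher and 8.88% lower, and DESeq2 gave 12 higher and 18 lower, library totals without TMM 10 and 9. E2f6 had 33.9, 54.2 and 62.4 CPM in neuron sEVs and no read in the other sEVs, at least 10.4-fold higher (edgeR adjusted p = 0.00622), a call lost with DESeq2.

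In astrocyte cells 2 fragments were called higher and 2 lower, against 7.91% of all isoforms, 5.77% higher and 2.13% lower, and the split was 7 higher and 1 lower without TMM and 4 and 17 with DESeq2. Ptprz1, a receptor phosphatase of glia, had 35.8, 21.2 and 24.1 CPM in astrocyte cells, against 12.7, 16.3 and 7.49 in neuron cells and no read in microglia cells (edgeR adjusted p = 0.0315). This call was lost without any 1 of the 9 cell libraries and with DESeq2. Leaving out any 1 of the 9 libraries left 1 call in astrocyte cells, 7 to 11 in neuron cells, 3 to 10 in astrocyte sEVs and 9 to 20 in neuron sEVs. In astrocyte sEVs 10 were higher and 3 lower, against 11.4% of all isoforms, 8.61% higher and 2.83% lower, and DESeq2 called 14 higher and 16 lower. The Eif5 fragment, 1.74-fold higher in astrocyte sEVs than in the other sEVs (edgeR adjusted p = 0.021), and the Thoc2 fragment, at 27.7, 15.6 and 15.3 CPM with 2 reads in the other sEVs, were among the higher ones. The Eif5 call was lost without replicate 2 or 3 of astrocyte sEVs, replicate 3 of microglia sEVs or replicate 2 of neuron sEVs.

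Only 2 fragments, or 1.2%, had a change in sEVs that differed between cell types, against 1.23% of all isoforms. The fragment of Phip, a chromatin reader with bromodomains, had no read in neuron sEVs, against 34.5, 21.2 and 22.5 CPM in neuron cells. In the other cell types its vesicle and cell levels overlapped, at 32.6, 29.2 and 11.4 CPM in astrocyte sEVs, against 25.4, 26.8 and 42.1 in astrocyte cells, and at 59.0, 131 and 83.4 in microglia sEVs, against 84.2, 117 and 112 in microglia cells (edgeR interaction, adjusted p = 0.0066). The Hsp90aa1 fragment 4342 had 64.8, 25.1 and 31.2 CPM in neuron sEVs, against 258, 224 and 271 in neuron cells, and 33.8, 35.0 and 50.8 CPM in astrocyte sEVs, against 118, 145 and 137 in astrocyte cells. In microglia it had 71.5, 76.7 and 62.5 CPM in sEVs, against 74.5, 78.8 and 57.1 in cells (edgeR interaction, adjusted p = 0.0289), a call that leaving out single libraries ended in most cases.

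A further test asked whether fragments became a larger or smaller part of their own gene in sEVs. It compared the reads in 5-prime fragments with all other reads of the gene in 151 genes, with edgeR's diffSpliceDGE. In astrocyte sEVs 6 genes passed, or 3.97% of those tested, with 1 higher (0.662%) and 5 lower (3.31%). In microglia sEVs 1 passed, or 0.662%, and it was lower. In neuron sEVs 5 passed, or 3.31%, with 2 higher (1.32%) and 3 lower (1.99%). The same test on 3-prime fragments called 1 of 881 genes in astrocytes (0.114%), 1 in microglia (0.114%) and 6 in neurons (0.681%), each of them higher in sEVs. These call rates do not compare well, since each set was adjusted over its own number of genes. At an unadjusted p under 0.05 in this test there were 160, 113 and 181 of the 881 3-prime genes in astrocytes, microglia and neurons. Of these, 152, 104 and 174 were higher in sEVs. For 5-prime fragments there were 23, 18 and 21 of 151, with 19, 14 and 18 lower. As in the isoform test, a class could pass the filter on the reads of 1 group alone. Fragments that passed only through cell libraries could only be lower in sEVs, and those that passed only through sEV libraries only higher. The filter may thus have fixed part of these directions. Without any 1 library the 5-prime calls dropped to at most 1 in astrocytes, 0 in microglia and at most 3 in neurons.

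**Figure D4:**
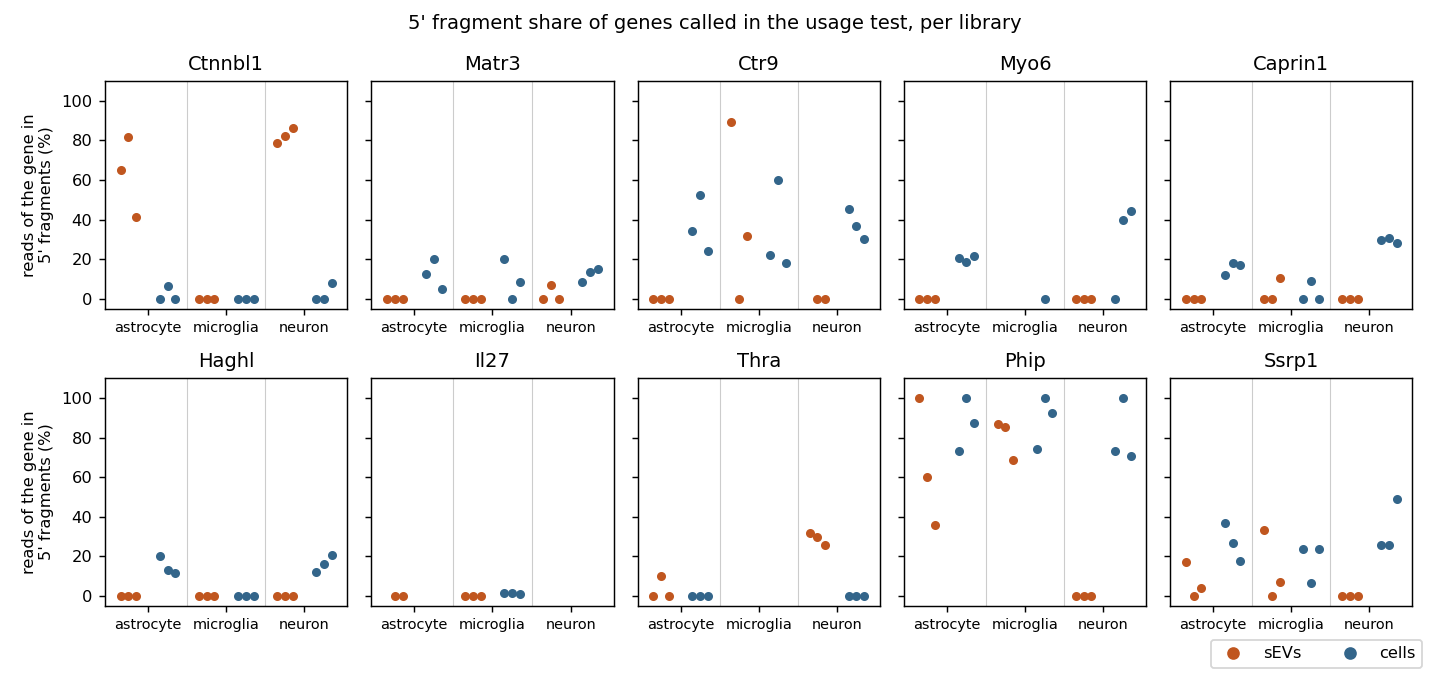
Share of a gene's reads in 5-prime fragments (%), 1 point per library with reads of the gene, for the 10 genes that passed the usage test in any cell type; sEVs (orange) are left of cells (blue). Ctnnbl1 and Thra are the genes with higher shares in sEVs, and the other 8 show lower shares in the sEVs where they were called.

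Ctnnbl1 showed the largest gain. Fragments held 78.8, 82.4 and 86.4% of its reads in neuron sEVs, against 0, 0 and 8.11% in neuron cells (edgeR adjusted p = 0.00779). In astrocyte sEVs they held 64.9, 81.8 and 41.3%, against 0, 6.67 and 0% in astrocyte cells (edgeR adjusted p = 0.0146). In microglia sEVs 0 of 129 reads and in microglia cells 0 of 89 reads were in fragments. For Thra the share was 31.9, 29.9 and 25.7% in neuron sEVs, against 0% in each library of neuron cells, which had 351 Thra reads in all (edgeR adjusted p = 0.00779). The neuron call of Ctnnbl1 was lost without replicate 1 or 2 of the sEVs or of the cells, and its astrocyte call without replicate 2 of the sEVs or replicate 1 or 3 of the cells. That of Thra was lost without replicate 1 or 2 of the sEVs or replicate 1 or 3 of the cells.

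The lower shares were mostly shares of 0 in sEVs. Phip, with most of its reads in fragments elsewhere, had 0 of 30 reads in fragments in neuron sEVs, against 44 of 56 in neuron cells (edgeR adjusted p = 0.00779). Ssrp1, a subunit of a histone chaperone of transcription, had 0 of 93 in neuron sEVs, against 49 of 150 in neuron cells (edgeR adjusted p = 0.0112). Caprin1, a protein of RNA granules, had 0 of 180 in neuron sEVs, against 49 of 167 in neuron cells, and 0 of 277 in astrocyte sEVs, against 38 of 240 in astrocyte cells (edgeR adjusted p = 0.0215 and 0.0305). Matr3, a nuclear matrix protein that binds RNA, had 0 of 368 in astrocyte sEVs, against 60 of 473 in astrocyte cells. Ctr9, of the Paf1 complex of transcription elongation, Myo6, a myosin motor, and Haghl, a hydrolase-like protein, were likewise at 0 in astrocyte sEVs. Il27 had 0 of 6140 in microglia sEVs, against 167 of 12783 in microglia cells (edgeR adjusted p = 0.0256). The calls of Matr3, Ctr9, Myo6, Caprin1, Haghl and Il27 were lost without any 1 library of the comparison. That of Ssrp1 was lost without any 1 except replicate 2 of neuron cells, and that of Phip without replicate 1 or 2 of the sEVs or replicate 1 of the cells.

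Some gene lists had a small share of their reads in 5-prime fragments. Over all genes, 2479 of 17714 labels had a fragment, and the class held 0.790% of all reads. Of 85 cytosolic ribosomal protein genes, 7 had a fragment, with 0.0791% of the 303242 reads of the list. Of 83 genes of the nuclear-encoded respiratory chain, 6 had one, with 0.022% of the reads. The 26 cytoskeleton labels, chosen by symbol and so holding Cflar, a regulator of cell death, had 3 genes with one and 0.018% of the reads, and the 39 cytokine and chemokine labels 4 genes and 0.0866%, with Il27 (167 reads) and Il1b (51) first. The 12 ER chaperones had 5 genes with fragments and 1.74% of the reads, from Hspa5 (676 reads), Hsp90b1 (132) and Canx (76). Both ER chaperone fragments that were tested are of Hspa5.

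Of 38 RNA-binding and splicing proteins, 14 had fragments, with 1.14% of the reads, and Srsf11 had 50.1% and Srrm2 79.1% of its reads in them. Of their 3 tested fragments, none passed a test in sEVs against cells. Of 21 cleavage and polyadenylation factors, 8 had fragments and 1.5% of the reads, led by Papola, the poly(A) polymerase, with 73 reads. The 10 genes known for short mRNAs that end in an intron or an alternative last exon had only 17 fragment reads of 6977, in 4 genes, and none could be tested.

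Among the cell type markers with fragments, Dcx, a microtubule protein of young neurons, had 12 of 35 reads in fragments (34.3%), and those 12 reads were all from neuron cells. Ptprc, the CD45 phosphatase of immune cells, had 263 of 736 (35.7%), with 38 of 75 reads in fragments in microglia sEVs and 225 of 661 in microglia cells. The 2 tested microglia marker fragments were called higher in microglia cells and in microglia sEVs than in the other cell types. Of all tested isoforms, 18.3% were called higher in microglia cells and 21.7% in microglia sEVs. Fragments held 0.396% of the reads of all microglia markers, 0.126% of those of astrocyte markers, with Gfap at 121 of 53538 reads, and 0.528% of those of neuron markers, with 66 reads of Syt1 (5.75%) and 26 of Map2 (1.37%). Oligodendrocyte lineage markers had 5 fragment reads of 22141. Markers of fibroblasts and vessels, of blood, and of ependyma and choroid plexus had none, with 863, 2 and 463 reads in all.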

How the data were processed

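Full-length cDNA of 18 libraries was read on the PacBio platform. The authors deposited 1 table of raw read counts per isoform, with an isoform category and subcategory in each line. Per the submitters' processing notes, reads were aligned to GRCm39 with minimap2; which isoform caller and annotation served is not given in the sources used here. Per the labels' protocols, cells and sEVs formed 2 pools of 2 SMRT cells each, and cDNA had 10 further cycles of amplification. Libraries held 434298 to 683381 reads, so a count of 0 allows up to 3 reads, or 4.39 to 6.91 reads per 1000000.

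Every isoform was fitted at once with edgeR 4.0.16 (R 4.3.3), quasi-likelihood, TMM, filterByExpr, and 6 groups sharing 1 estimate of the spread. P-values were adjusted by Benjamini-Hochberg over all 9370 tested isoforms, and calls used an adjusted p of 0.05. Usage was tested with diffSpliceDGE on reads summed by gene and class. Library shares were compared by exact, two-sided permutation (scipy 1.17.1). Scripts were tested on simulated data. Alternatives were DESeq2 1.42.0, no TMM, a looser filter, another denominator, the replicate number as a block, and leaving out each library.

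The isoforms named are the 12 with the highest mean level, the 6 largest changes in each direction per sEV comparison (4 per cell type comparison, higher only) among calls with no overlap of libraries and a mean count of 10 or more, the 6 smallest p-values of usage and of the interaction, and up to 3 genes per list. Predicted genes are counted but not named among them. The isoforms and lists were chosen with earlier results of these data known. Promoters come from RefSeq and were shown after values were seen.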

Additional observations from a re-analysis of the deposited data

Results flagged for a closer look

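The ratio of the 5-prime fragment share in sEVs to that in cells differed among cell types, at 0.392 in neurons, 0.710 in astrocytes and 0.998 in microglia (exact permutation p = 0.00357). That test was added after seeing the data and rests on an arbitrary pairing of libraries by number. The change in sEVs also differed among cell types for 2 fragments. That of Phip was at 0 in neuron sEVs and overlapped between sEVs and cells in astrocytes and microglia (edgeR interaction, adjusted p = 0.0066). That of Hsp90aa1 averaged 40.4 ± 21.3 CPM in neuron sEVs and 251 ± 24.4 in neuron cells, and 70.2 ± 7.14 CPM in microglia sEVs and 70.1 ± 11.5 in microglia cells (SD, n = 3, edgeR interaction, adjusted p = 0.0289).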

How the results depend on the processing

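Without Ftl1 and Fth1 reads, the share difference over the 3 cell types was -0.200 percentage points (exact p = 0.053), that of microglia sEVs against cells turned to 0.0449, and neuron sEVs against other sEVs passed at -0.274 (exact p = 0.0357). Of incomplete splice matches only, microglia cells turned to 10.3, neuron cells turned to -3.77, and neuron sEVs passed at -7.22 (exact p = 0.0476) against the other cell types. With a looser filter of 10 reads in all, calls were 4 in astrocyte, 3 in microglia and 12 in neuron sEVs against cells, 2 in astrocyte and 6 in neuron cells, 3 in astrocyte and 7 in neuron sEVs against other cell types, and 0 in the interaction. Without TMM, calls were 8 in astrocyte cells and 4 in the interaction. DESeq2 called 21 in astrocyte cells, 30 in astrocyte sEVs and 30 in neuron sEVs against other cell types, and 7 in the interaction. Usage calls were 1 in astrocytes and 3 in neurons with the looser filter, and 1, 0 and 1 in astrocytes, microglia and neurons against full-splice matches, where Myo6 (1.24) and Ssrp1 (0.93) turned on the log2 scale (edgeR adjusted p = 1). The causes were not tested.

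Libraries with the same number did not deviate together (9 correlations of -0.039 to 0.0597, with 4 of 9 libraries closest to their own number), so the numbers were not taken to pair them. With the replicate number as a block, calls were 3, 0 and 8 in astrocyte, microglia and neuron sEVs against cells and 0 in the interaction, usage calls were 0, 0 and 4, and the share difference stayed at -0.314 (exact sign-flip p = 0.0156). At the counts of 0 in edgeR, unadjusted p-values under 0.05 numbered 17 for microglia isoforms with the block and 6 for the interaction with the block, 24 for the interaction with the looser filter, 20 and 16 for blocked usage in astrocytes and microglia.

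Leaving out 1 library gave share differences of sEVs against cells of -0.308 to -0.173 in astrocytes, -0.0362 to 0.0518 in microglia, -0.778 to -0.622 in neurons and -0.339 to -0.287 over all. The microglia value turned to 0.0144 without replicate 3 of the sEVs and to 0.0518 without replicate 1 of the cells. Against other cell types it gave -0.295 to -0.160 for astrocyte, -0.149 to -0.0144 for microglia and 0.235 to 0.391 for neuron cells, and -0.181 to -0.0625 for astrocyte, 0.346 to 0.410 for microglia and -0.324 to -0.206 for neuron sEVs. Isoform calls were 7 to 14, 3 to 10 and 13 to 21 in astrocyte, microglia and neuron sEVs against cells, 1 in astrocyte, 56 to 69 in microglia and 7 to 11 in neuron cells, 3 to 10, 59 to 74 and 9 to 20 in the sEVs, and 1 to 2 in the interaction. Usage calls were 0 to 1, 0 and 0 to 3. Over 638 alternatives of 55 named results, 392 kept direction and call, 244 lost the call and 2 turned. Low counts limit these tests, since 166 of 3984 fragments could be tested.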

Other observations

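The fragment of Zfp660, a zinc finger protein, was too uneven to be tested. It held 521 of 538 Zfp660 reads in replicate 2 of neuron sEVs, against 0 of 65 in replicate 1, and 38 of 38 in replicate 1 of astrocyte sEVs. No other library had a Zfp660 read.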
